A study of Mus musculus with 6 samples.

Results

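Sterol and fatty acid synthesis genes were examined as 32 genes chosen by name. They are enzymes of sterol and fatty acid synthesis, genes of the SREBP transcription factors and their control, and genes of sterol transport and uptake. All 32 were found by symbol among the 34745 genes listed for cardiac macrophages, and all 32 passed the filter on low counts. They were compared between 3 libraries of macrophages from Lgmn KO mice (replicates 1, 2 and 4), in which the gene of the lysosomal protease legumain is disrupted, and 3 libraries from WT mice (replicates 1, 2 and 3). All mice were C57BL/6 and 8 weeks old, the tissue was heart, and the series places the samples after myocardial infarction; the labels name both coronary ligation and sham surgery without saying which animal had which. The cells had been stained for CD45, CD64 and CD11b with a dye for dead cells. No source used here says which part of Lgmn was removed, whether animals were pooled or whether each library came from its own animal. The p-values therefore cover the differences seen among these libraries, which could be technical.

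Cells make cholesterol from acetyl-CoA through mevalonate, isoprenoids and squalene, and make fatty acids from the same precursor through malonyl-CoA. SREBP proteins, encoded by Srebf1 and Srebf2, sit in the endoplasmic reticulum with their escort Scap and are held there by Insig proteins when sterol is plentiful. When sterol is low they are cut free and switch on these genes, Srebf2 being known mainly for the sterol genes and Srebf1 mainly for the fatty acid genes. Macrophages that engulf dying cells take in much cholesterol and membrane lipid.

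Library totals lay between 19546253 and 24086976 counts, and 12546 genes were tested. Lgmn itself was at 78.7, 88.5 and 83.5 CPM (counts scaled to TMM-adjusted library size) in Lgmn KO, against 2205, 2692 and 2277 CPM in WT, the direction the labels give. The macrophage markers Cd68, Adgre1, Fcgr1, Itgam, Ptprc, Csf1r, Mertk and Lyz2 summed to between 20140 and 23450 CPM in Lgmn KO and between 21463 and 23210 CPM in WT. Lyz2 alone made up 71.9% of this sum over all libraries, and 0 of the 8 were called. Over all genes tested, 39 were called higher and 60 lower, and without WT replicate 1 these counts were 169 and 470.

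Of 7 fatty acid members, 6 had Lgmn KO libraries that all lay below all WT libraries. Of 18 sterol enzymes, 1 had groups that did not overlap, Hmgcs1, and its Lgmn KO libraries lay above WT. Groups did not overlap for 23.7% of all genes tested. None of these differences passed the test over all genes: 0 of 32 members were called at an adjusted p below 0.05 (quasi-likelihood test of edgeR, Benjamini-Hochberg), beside 0.789% of all genes, 0.311% higher and 0.478% lower. An unadjusted p under 0.05 was found for 9 of the 32 members, against 17.5% of all genes. DESeq2 called 4 of the 32, Hmgcs1 higher and Fasn, Scd2 and Fads1 lower. Over all genes DESeq2 called 279 higher and 503 lower, many more than edgeR. With sample weights limma-voom called 3 members, Hmgcs1 higher and Scd2 and Fads1 lower, beside 119 higher and 221 lower over all genes. The smallest adjusted p of a member by edgeR was 0.0519, for Scd2. Over all members the median log2 fold change, Lgmn KO relative to WT, was -0.16, beside -0.002 over all genes tested, and 25 of 32 were negative, beside 50.4% of all genes. Groups did not overlap with Lgmn KO lower for 7 members, beside 13% of all genes, and with Lgmn KO higher for 1 member, beside 10.7%.

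**Figure D1:**
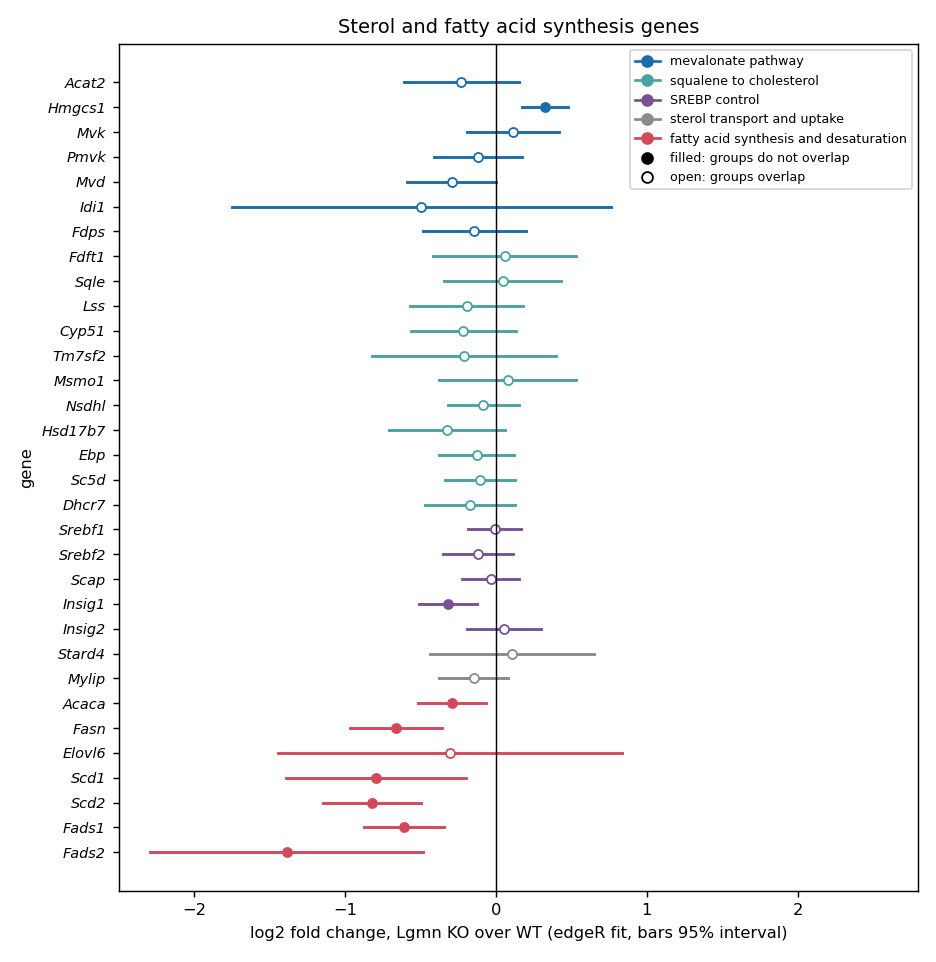
Log2 fold change, Lgmn KO relative to WT, for each of the 32 genes, coloured by role, with the 95% interval of the edgeR fit as a bar; filled points mark genes whose 3 Lgmn KO and 3 WT libraries do not overlap. The fatty acid genes at the bottom lie left of 0, between -1.39 and -0.29, and the sterol enzymes lie between -0.49 and 0.32.

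The stretches upstream of 3 genes with groups that did not overlap are shown here, so that the letters searched for can be seen in place: Hmgcs1, with the higher Lgmn KO libraries, and Fasn and Insig1, with the lower ones. They are RefSeq promoters on GRCm38.p6, cut before the annotated exons, at chr13:119690101-119690350 (plus strand), chr11:120824548-120824797 (minus strand) and chr5:28071162-28071362 (plus strand). Each is given 5′ to 3′ on the strand of its gene, and capitals mark CCAAT on either strand (the box that NF-Y binds) and, in Hmgcs1, the sterol regulatory element TCACCCCAC.
Hmgcs1: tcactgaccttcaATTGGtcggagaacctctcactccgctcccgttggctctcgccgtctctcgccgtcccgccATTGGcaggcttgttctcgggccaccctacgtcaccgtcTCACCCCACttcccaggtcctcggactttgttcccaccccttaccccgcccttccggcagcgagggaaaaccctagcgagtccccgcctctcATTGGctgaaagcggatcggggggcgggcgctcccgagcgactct
Fasn: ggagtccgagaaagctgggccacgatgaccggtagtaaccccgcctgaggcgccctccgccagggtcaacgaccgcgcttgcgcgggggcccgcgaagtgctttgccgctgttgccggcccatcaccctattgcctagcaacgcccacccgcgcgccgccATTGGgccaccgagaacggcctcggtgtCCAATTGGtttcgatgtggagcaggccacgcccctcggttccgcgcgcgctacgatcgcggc
Insig1: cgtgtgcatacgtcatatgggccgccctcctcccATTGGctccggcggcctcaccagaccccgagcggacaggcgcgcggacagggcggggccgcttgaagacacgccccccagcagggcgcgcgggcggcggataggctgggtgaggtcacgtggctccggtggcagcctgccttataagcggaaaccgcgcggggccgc
The RefSeq table held promoters of 25 of the 32 members, and the 250 bases before each start were searched on both strands. CCAAT occurred before 20 of 25 member genes (80%), against 37.5% of all genes in the table, and GGGCGG, the box that Sp1 binds, before 21 of 25 (84%), against 35.4%. TCACCCCAC was found before Hmgcs1 and no other member (4%, against 0.555% of all genes), and the looser form TCACNCCAC, which includes it, gave the same gene. In Fasn CCAAT and its reverse complement overlap at 1 place. Of the 4 fatty acid members with a promoter in the table, Fasn was the only one with CCAAT: the Fads2 window held GGGCGG alone, and those of Acaca and Elovl6 held none of these motifs. The Acaca window lies inside the annotated gene, and most of the Fads2 window is annotated exon, so neither is printed. The E-box TCACGTGA occurred before 0 of the 25, against 0.907% of all genes. All these background shares cover 27025 genes, whether tested here or not, while all members were tested. No share among tested genes alone was computed. A match is a run of letters, not a bound site, and a missing match says only that those letters are not in that window.

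Fatty acid synthesis begins with Acaca, which makes malonyl-CoA, and Fasn, the synthase that builds palmitate. Fasn had 32.3, 36.9 and 26.8 CPM in Lgmn KO, against 55.9, 49.5 and 46.5 CPM in WT. Every Lgmn KO library lay below every WT library, with a gap between 36.9 and 46.5 CPM. The log2 fold change was -0.66 with a standard error of 0.13 (adjusted p = 0.0701, edgeR quasi-likelihood test; 0.000878 by DESeq2), a level 36.8% below WT. Acaca had 25.3, 24.99 and 27.5 CPM in Lgmn KO, against 31.6, 34.7 and 28.9 CPM in WT. Its groups also did not overlap, but the gap was small, and the log2 fold change was -0.29 with a standard error of 0.10 (adjusted p = 0.183). Elovl6, which lengthens palmitate, was low and scattered, at 3.01, 3.27 and 2.26 CPM in Lgmn KO, against 1.12, 5.23 and 4.17 CPM in WT. Its groups overlapped because WT replicate 1 was the lowest library of all, and its log2 fold change of -0.31 became 0.09 without WT replicate 2.

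The desaturases put double bonds into fatty acids, and all 4 had groups that did not overlap. Scd2, a stearoyl-CoA desaturase, had 26.0, 27.0 and 19.5 CPM in Lgmn KO, against 38.8, 46.7 and 42.4 CPM in WT. Its highest Lgmn KO library was at 27.0 CPM and its lowest WT library at 38.8 CPM. The log2 fold change was -0.82 with a standard error of 0.14 (95% interval -1.14 to -0.49; adjusted p = 0.0519, edgeR quasi-likelihood test; 4.1e-05 by DESeq2), a level 43.3% below WT. Scd1, the related desaturase known chiefly from liver and fat, was far lower by FPKM. It was at 0.602 ± 0.172 FPKM in Lgmn KO and 1.05 ± 0.145 FPKM in WT. Scd2 was at 4.41 ± 0.769 FPKM in Lgmn KO and 7.84 ± 0.651 FPKM in WT (SD, n = 3 each). FPKM are the deposited values, and their divisor is not the gene length for every gene. Scd1 had 1.97, 3.22 and 3.58 CPM in Lgmn KO, against 4.23, 5.69 and 5.30 CPM in WT, so its groups did not overlap either (log2 fold change -0.79, standard error 0.25, adjusted p = 0.173). Scd1 and Scd2 are alike in sequence. Of the 50-base words in Scd1 transcripts 2.97% also occur in Scd2, and 2.66% the other way, counting exact matches only. Scd2 had 413 to 1016 counts per library, against 40 to 127 for Scd1, so shared words could weigh more on Scd1. How many reads could be placed in either was not tested.

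Fads1 and Fads2 act in turn on polyunsaturated fatty acids, on the way to arachidonic acid. Fads1 was the most abundant fatty acid member by FPKM, at 11.5 ± 1.41 FPKM in Lgmn KO and 17.6 ± 1.97 FPKM in WT (SD, n = 3 each). It had 44.9, 39.2 and 35.4 CPM in Lgmn KO, against 67.5, 56.4 and 58.1 CPM in WT. No Lgmn KO library reached the WT range, and the log2 fold change was -0.61 with a standard error of 0.11 (95% interval -0.87 to -0.34; adjusted p = 0.0585, edgeR quasi-likelihood test; 0.000632 by DESeq2). Fads2 was rare, with 13, 25 and 14 counts in Lgmn KO and 61, 47 and 39 counts in WT. These groups did not overlap, and its log2 fold change of -1.39 was the lowest of the 32, with a standard error of 0.39 (adjusted p = 0.136), and it was -0.67 on the log2(FPKM + 1) scale, which understates changes of low genes. Both genes lie on chromosome 19, as do Scd1 and Scd2. Without WT replicate 1, edgeR called Scd2 and Fads1 lower (adjusted p = 0.0248 and 0.0469), and without any other library it called no fatty acid member.

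**Figure D2:**
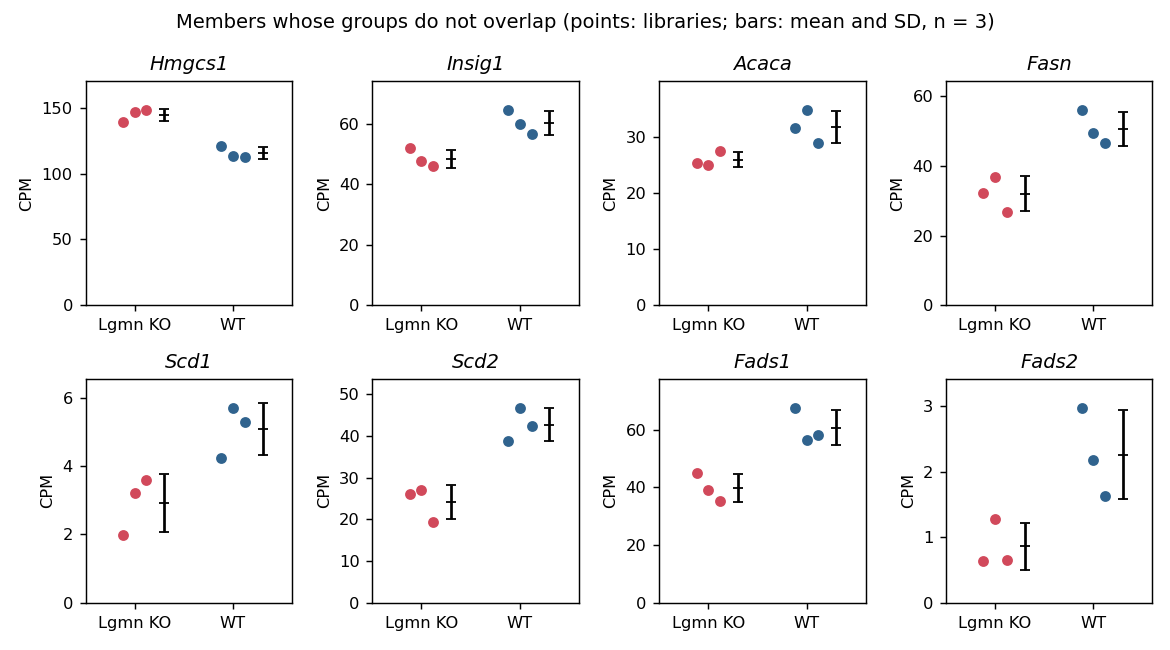
CPM of the 8 members whose groups do not overlap, with a point per library, Lgmn KO on the left and WT on the right of each panel, and bars for mean and SD (n = 3). Hmgcs1 is higher in Lgmn KO (139 to 148 CPM, against 113 to 121 CPM in WT), and Insig1, Acaca, Fasn, Scd1, Scd2, Fads1 and Fads2 are lower.

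Summed by FPKM, the 7 fatty acid members were at 22.3, 21.99 and 18.3 FPKM in Lgmn KO and at 35.8, 33.2 and 31.8 FPKM in WT. The 18 sterol enzymes summed to 157.8, 141.0 and 137.6 FPKM in Lgmn KO and to 158.5, 142.6 and 142.3 FPKM in WT. The fatty acid sum was thus 14.1%, 15.6% and 13.3% of the sterol sum in Lgmn KO libraries and 22.6%, 23.3% and 22.3% in WT libraries. Leaving out Hmgcs1, the largest item of the sterol sum, these shares were 19.4%, 23.0% and 19.8% in Lgmn KO and 29.8%, 30.8% and 29.5% in WT. The size of these shares depends on the FPKM divisors, which are not the gene length for every gene. The difference between the groups of genes was not tested.

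The summed markers of fibroblasts, T and NK cells, dendritic cells and the cell cycle were also lower in every Lgmn KO library than in any WT library. Those of monocytes, neutrophils, B cells, endothelial cells and cardiomyocytes overlapped. Kdr made up 82.6% of the endothelial sum, and 1 of 3 tested endothelial markers was called lower. Chil3 made up 88.2% of the monocyte sum. In bulk RNA fewer cells of a type and less RNA per cell cannot be told apart. Of 7 fibroblast markers (Col1a1, Col1a2, Col3a1, Dcn, Pdgfra, Lum and Postn), 0 were at zero, 0 were called, and the sum was 45.4 to 117 CPM in Lgmn KO and 132 to 181 CPM in WT. The 10 cell cycle genes, led by Mki67, with 0 called, summed to 56.6 to 76.0 CPM in Lgmn KO and 77.9 to 114 CPM in WT. The 11 T and NK cell markers, of which Ncr1 was at zero and 1 was called lower, summed to 0.888 to 1.603 CPM in Lgmn KO and 5.26 to 13.6 CPM in WT. The 7 dendritic cell markers, of which Siglech was at zero and 1 was called lower, summed to 3.21 to 5.09 CPM in Lgmn KO and 5.31 to 15.6 CPM in WT. Ccr7 made up 50.8% of the dendritic cell sum, and 4 of these 7 markers were tested. Genes whose symbols begin with Rpl or Rps and a digit, mostly ribosomal proteins, took 0.998%, 0.88% and 0.86% of all counts in Lgmn KO libraries, against 1.05%, 1.12% and 1.05% in WT libraries, also without overlap. The part of these markers and shares in the lower fatty acid transcripts was not tested. Of 6 adipocyte markers, Cidec, Cfd, Retn and Pck1 had no count in any library, and Adipoq and Plin1 summed to at most 0.283 CPM in Lgmn KO, against 0.195 CPM in WT.

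The mevalonate pathway was led by Hmgcs1, the synthase that joins acetyl-CoA and acetoacetyl-CoA. It was also the most abundant of the 32 genes by FPKM (44.5 ± 1.39 FPKM in Lgmn KO and 35.9 ± 1.92 FPKM in WT, SD, n = 3 each). By mean CPM, Srebf2 was higher. Hmgcs1 had 139, 146 and 148 CPM in Lgmn KO, against 121, 113 and 113 CPM in WT. All Lgmn KO libraries lay above all WT libraries, and the log2 fold change was 0.32 with a standard error of 0.07 (95% interval 0.17 to 0.48; adjusted p = 0.0727, edgeR quasi-likelihood test; 0.00466 by DESeq2), a level 25.2% above WT. It passed by edgeR without WT replicate 1 (adjusted p = 0.0342) and in no other fit that left out a library. On either side of it in the pathway the groups overlapped. Acat2, the thiolase that supplies acetoacetyl-CoA, was at 6.00 ± 0.928 CPM in Lgmn KO, against 7.04 ± 0.520 CPM in WT (mean ± SD, n = 3 each), with overlapping groups. The kinase genes Mvk and Pmvk had log2 fold changes of 0.11 and -0.12, and Fdps, which makes farnesyl diphosphate, of -0.14. These small values moved with single libraries: Mvk was at 0.028 without WT replicate 3, Pmvk at -0.032 without Lgmn KO replicate 4 and Fdps at -0.038 without WT replicate 1. Acat2, with a log2 fold change of -0.23, was at -0.11 without Lgmn KO replicate 4. Idi1, the isopentenyl diphosphate isomerase, had a log2 fold change of -0.49 that rested on Lgmn KO replicate 2, and of -0.03 without it. Mvd, the decarboxylase that makes isopentenyl diphosphate, had 26.9, 22.9 and 20.2 CPM in Lgmn KO, against 30.7, 26.1 and 29.0 CPM in WT, with an overlap between Lgmn KO replicate 1 and WT replicate 2 (log2 fold change -0.29, adjusted p = 0.284).

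From squalene to cholesterol, none of 11 enzymes had groups that did not overlap, and none had an unadjusted p under 0.05. Their log2 fold changes lay between -0.33 for Hsd17b7, which works on the demethylation of sterol intermediates, and 0.08 for Msmo1, the methylsterol oxidase. Ebp, a sterol isomerase, was the most abundant by FPKM, with 63.0, 55.4 and 55.0 CPM in Lgmn KO, against 55.3, 70.6 and 63.5 CPM in WT. Its groups overlapped, and its log2 fold change was -0.13 (95% interval -0.38 to 0.12). Sqle, the squalene epoxidase that limits the rate of this stretch, was at 44.9 ± 8.76 CPM in Lgmn KO, against 43.6 ± 7.28 CPM in WT (mean ± SD, n = 3 each), with a 95% interval of -0.34 to 0.43 on the log2 scale. Cyp51, the lanosterol demethylase, had a log2 fold change of -0.21, Dhcr7, a reductase of the last steps, of -0.17 and Lss, which closes the sterol rings, of -0.19. These too moved with single libraries: Cyp51 was at -0.067 without WT replicate 1, Dhcr7 at -0.078 without Lgmn KO replicate 4 and Lss at -0.028 without Lgmn KO replicate 2. Ebp was at -0.041 without WT replicate 2. Sc5d, a sterol desaturase, and Nsdhl, a dehydrogenase of sterol demethylation, lay at -0.11 and -0.08, and at -0.042 without WT replicate 1 and -0.011 without WT replicate 2. Tm7sf2, a sterol reductase, was the rarest of the 11 by FPKM, at 0.348 ± 0.0260 FPKM in Lgmn KO and 0.406 ± 0.122 FPKM in WT (SD, n = 3 each). Fdft1, the squalene synthase, had a log2 fold change of 0.06, but its exons overlap those of Ctsb on the other strand, a very abundant macrophage transcript. No source used here says whether strand was used, so reads in the shared stretch cannot be told apart.

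Within each genotype the sterol enzymes tended to be highest in the same library. Lgmn KO replicate 1 was the highest of the 3 Lgmn KO libraries for 14 of the 18 enzymes, beside 35.6% of all genes tested, and Lgmn KO replicate 4 was the lowest for 11 of them, beside 33.2%. WT replicate 1 was the highest WT library for 11 of the 18, beside 37.8% of all genes. Relative to the WT mean, the median of the 18 enzymes was -0.01, -0.17 and -0.22 on the log2 scale in Lgmn KO (replicates 1, 2 and 4), against 0.10, -0.06 and -0.03 for WT. The same median over the 7 fatty acid members was -0.65, -0.63 and -0.78 in Lgmn KO and -0.01, 0.13 and -0.06 in WT. Lgmn KO replicate 1, the highest for sterol enzymes, thus stood with the other Lgmn KO libraries for the fatty acid genes.

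**Figure D3:**
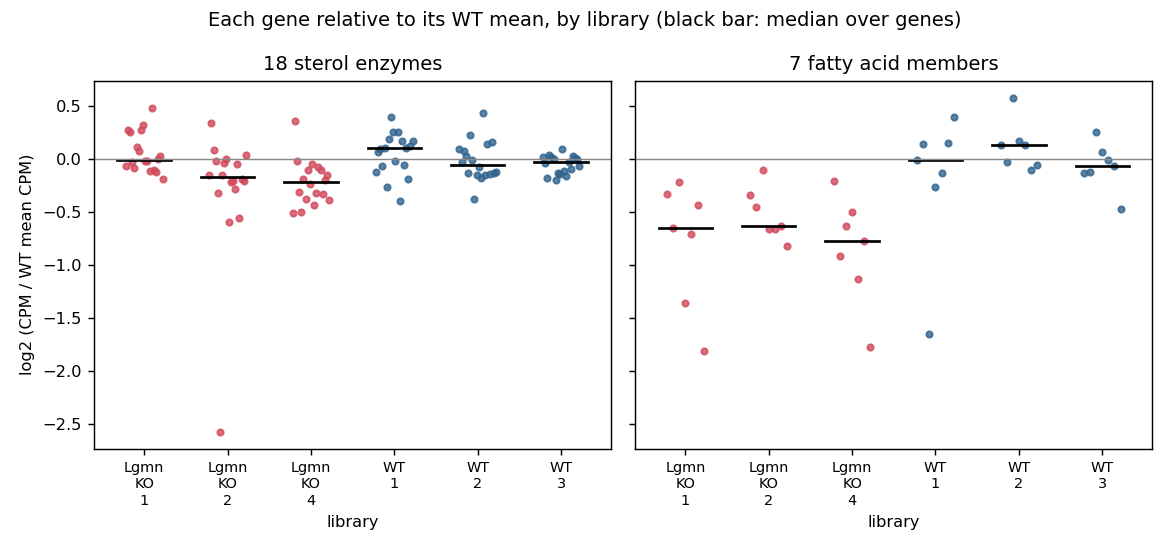
Log2 ratio of each gene's CPM to its WT mean in every library, Lgmn KO left of WT, for the 18 sterol enzymes (left panel) and the 7 fatty acid members (right panel); black bars are medians over genes. The sterol medians range from -0.22 to 0.10 over the 6 libraries, and the fatty acid medians are at -0.63 or lower in all Lgmn KO libraries. The lowest sterol point is Idi1 in Lgmn KO replicate 2.

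Of the 5 genes that control SREBP, 4 had overlapping groups, both factors among them. Srebf2 was the most abundant of them by FPKM, with 166, 163 and 138 CPM in Lgmn KO, against 184, 154 and 167 CPM in WT. The groups overlapped, and its log2 fold change was -0.12 (95% interval -0.35 to 0.12; adjusted p = 0.604, edgeR quasi-likelihood test), and -0.041 without Lgmn KO replicate 4. Srebf1 was at 56.1 ± 3.87 CPM in Lgmn KO, against 56.4 ± 1.07 CPM in WT (mean ± SD, n = 3 each), with a log2 fold change of -0.01 whose sign turned with RLE scaling and a 95% interval of -0.18 to 0.17. The counts do not separate the transcript forms of Srebf1. Insig1, the retention protein whose gene is itself an SREBP target, had 51.8, 47.5 and 46.1 CPM in Lgmn KO, against 64.4, 59.9 and 56.6 CPM in WT. The groups did not overlap, and the log2 fold change was -0.31 with a standard error of 0.08 (adjusted p = 0.116; 0.0716 by DESeq2). Insig2, its relative, was at 23.8 ± 2.16 CPM in Lgmn KO, against 23.0 ± 1.63 CPM in WT, and Scap at 53.9 ± 1.98 CPM in Lgmn KO, against 55.3 ± 4.24 CPM in WT (mean ± SD, n = 3 each).

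Both members for sterol movement had overlapping groups. Mylip, the ubiquitin ligase that sends lipoprotein receptors to breakdown, had 38.2, 32.1 and 35.6 CPM in Lgmn KO, against 37.7, 42.7 and 37.0 CPM in WT. These groups overlapped (log2 fold change -0.15, adjusted p = 0.495, edgeR quasi-likelihood test; log2 fold change -0.082 without WT replicate 2). Stard4, a sterol carrier of the cytosol, had 30.6, 31.0 and 16.3 CPM in Lgmn KO, against 26.6, 22.9 and 22.8 CPM in WT. Its libraries of Lgmn KO lay on both sides of WT.

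**Figure D4:**
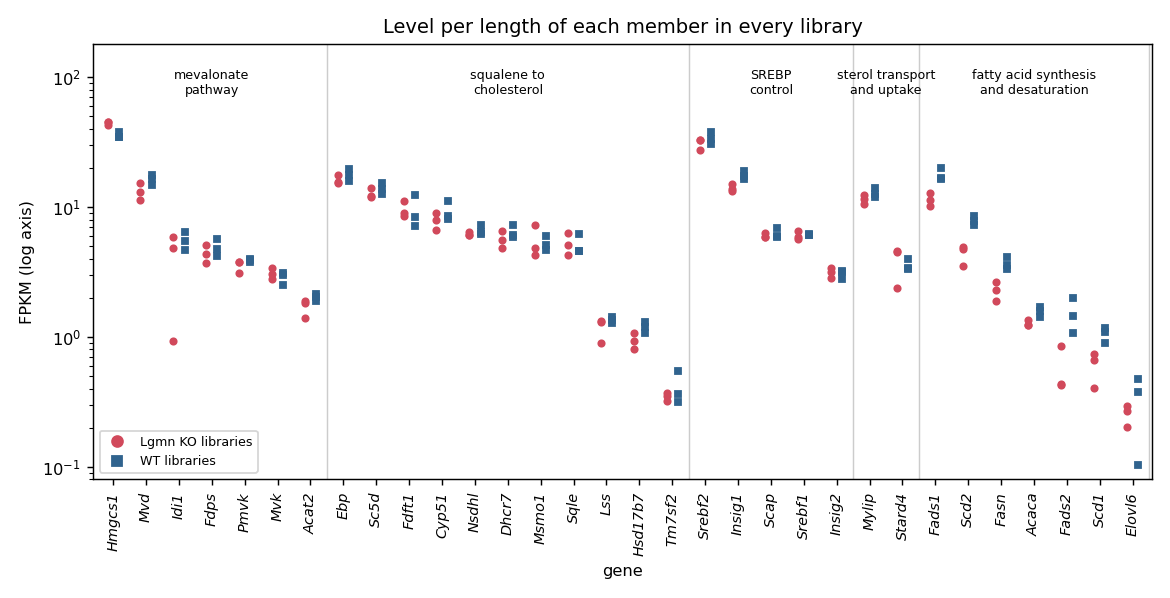
FPKM of each member in every library on a log axis, by role and in falling order within it; circles are Lgmn KO libraries and squares, to their right, WT libraries. Hmgcs1 and Srebf2 are the highest, with means of 40.2 and 32.5 FPKM over all 6 libraries, and Elovl6 is the lowest, at 0.287 FPKM. The FPKM divisor is not the gene length for every member, so the order of different genes depends on these divisors.

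Around these members, 76 further genes of the same pathways were counted, of which 74 were tested and 0 were called by edgeR. Of the 74, 13 had an unadjusted p under 0.05 by edgeR, beside 17.5% of all genes tested. The log2 fold change was positive for 40 and negative for 34, where 50.4% of all genes were negative. The median of the 74 was 0.03, beside -0.002 over all genes tested. Groups did not overlap for 11 with Lgmn KO higher and 10 with it lower, where 10.7% and 13% of all genes did so. Of 15 other enzymes of sterol and isoprenoid synthesis, Por, the reductase that feeds electrons to Cyp51 and Sqle, had the smallest p. Por was at 763 ± 80.8 CPM in Lgmn KO, against 594 ± 31.5 CPM in WT (mean ± SD, n = 3 each; log2 fold change 0.36, adjusted p = 0.106, edgeR quasi-likelihood test; 0.017 by DESeq2). Of 14 genes of SREBP processing and sterol-driven protein breakdown, March6, a ubiquitin ligase of the endoplasmic reticulum, had the smallest p, at 133 ± 8.35 CPM in Lgmn KO, against 103 ± 5.97 CPM in WT (mean ± SD, n = 3 each; log2 fold change 0.36, adjusted p = 0.0817, edgeR quasi-likelihood test; 0.00671 by DESeq2).

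Of 9 tested genes of acetyl-CoA and NADPH supply, Acly, which makes the acetyl-CoA that Acaca and Hmgcs1 draw on, had the smallest p. Acly had 212, 224 and 214 CPM in Lgmn KO, against 245, 236 and 245 CPM in WT, with groups that did not overlap and a log2 fold change of -0.16 (adjusted p = 0.239, edgeR quasi-likelihood test). Of 18 tested genes of fatty acid elongation, activation and glycerolipid assembly, Acsl3, which activates fatty acids, was at 6.47 ± 1.77 CPM in Lgmn KO, against 9.72 ± 1.11 CPM in WT (mean ± SD, n = 3 each; log2 fold change -0.59, adjusted p = 0.228, edgeR quasi-likelihood test). The median of these 18 was -0.02, beside -0.66 for the 7 fatty acid members, a difference that was not tested. Of 18 genes of sterol uptake, esterification, oxysterols and efflux, Lipa, the acid lipase that frees cholesterol in lysosomes, had 2130, 2195 and 2237 CPM in Lgmn KO, against 1781, 1773 and 1879 CPM in WT. Its groups did not overlap, and its log2 fold change was 0.27 (adjusted p = 0.0907, edgeR quasi-likelihood test; 0.00635 by DESeq2).

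In the authors' deposited table, q-values were under 0.05 for 4 of the 32 members, and for 3.81% of all genes with a q-value. In the authors' deposited table the log2 fold change was -0.83 for Scd2, -0.62 for Fads1, -0.68 for Fasn and -1.41 for Fads2. The q-values in the authors' deposited table were 0.00018 for Scd2, 0.0034 for Fads1, 0.0029 for Fasn and 0.0317 for Fads2, from the same libraries and a test that no source used here names.

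**Figure D5:**
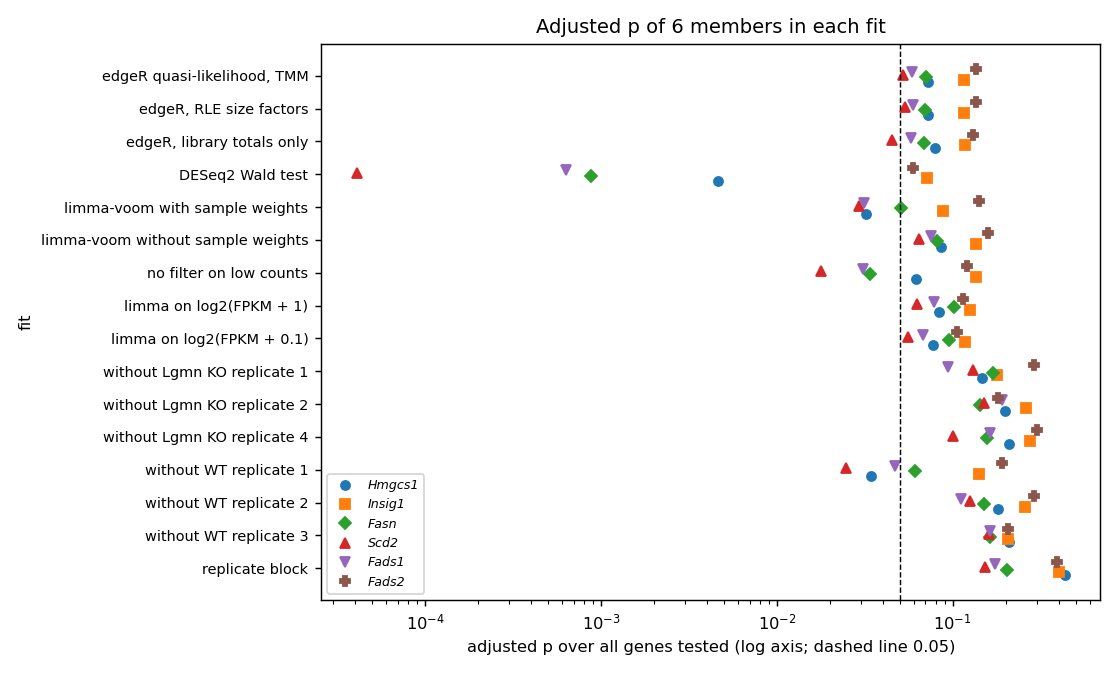
Adjusted p over all genes tested (log axis) of 6 members under each fit, with a dashed line at 0.05. Scd2, Fads1 and Fasn lie left of the line with DESeq2 and without a filter on low counts. Scd2 and Fads1 also do so with limma sample weights and without WT replicate 1, and Scd2 with library totals only. Hmgcs1 lies left of it with DESeq2, with limma sample weights and without WT replicate 1. Insig1 and Fads2 do so in none of the fits.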

How the data were processed

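The authors deposited 1 table with a count and an FPKM value per gene and library; columns were matched to samples by title. The deposited counts are whole numbers with different totals and were taken as raw reads. The deposited FPKM values equal count over library total and 1 whole number per gene. This held within 0.5 bases in 100% of the 9082 genes whose 6 libraries all reached 100 counts. That number was not compared with annotated lengths, and for Tm7sf2 and the related gene Aup1 it is larger than the span of the gene. Levels of different genes were compared by FPKM and depend on these numbers. The authors' log2 fold changes, p-values and q-values, per the file headers, were only described. Per the submitters' processing notes, TopHat, TopHat2 2.0.9 and HISAT2 were used, with the human build hg38, yet 98.8% of gene IDs are in GENCODE M21 (GRCm38). No source used here names the counter or its strand setting. Exons of 11 members overlap another gene, among them Hmgcs1 (Gm48342, other strand) and Scd2 (Mir5114, same strand).

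Genes were kept by edgeR's filterByExpr, TMM-scaled and tested with edgeR 4.0.16 (glmQLFit, glmQLFTest; R 4.3.3), Lgmn KO against WT, no covariate, Benjamini-Hochberg adjustment over all 12546 genes, threshold 0.05. CPM use TMM-scaled totals. Standard errors come from the F statistic. Alternatives were DESeq2 1.42.0, limma 3.58.1 (voom, and log2(FPKM + 1) or log2(FPKM + 0.1)), RLE or no scaling factors, no filter, a threshold of 0.1, each library left out, and a replicate block. The procedure was tested on simulated data. Between libraries of 1 genotype the chi-square of the counts was 14.0 to 42.7 per degree of freedom. Each library counted as 1 sample, but this spread does not show whether it came from its own animal. Replicate numbers 1 and 2 occur in both genotypes; deviations of same-numbered libraries correlated at 0.122 and 0.0757, and nothing in the labels pairs them.

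Members, lists and markers were chosen with earlier results of these data known. Values by library are given for members whose groups do not overlap and for the most abundant by FPKM of each role. From each related list, every called gene and that of smallest p are named. March6 was matched by ID. Mvd, Stard4 and others named beyond this rule were chosen after their values were seen.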

Additional observations from a re-analysis of the deposited data

How the results depend on the processing

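Over 16 alternative fits, 28 of the 32 members kept their side of the threshold in every fit. The others, Hmgcs1, Fasn, Scd2 and Fads1, passed in some. DESeq2 and a threshold of 0.1 each called 1 member higher and 3 lower, no filter on low counts 0 and 3, limma-voom with sample weights 1 and 2, and library totals without factors 0 and 1 (Scd2). All members called lower were fatty acid genes. All genes called higher and lower numbered 279 and 503 with DESeq2, 179 and 324 at 0.1, 119 and 221 with sample weights, 21 and 25 with limma-voom without weights, 88 and 230 without a filter, and 47 and 118 with library totals, beside 39 and 60. Without 1 library, members called higher ranged from 0 to 1, members and fatty acid members called lower from 0 to 2, members with a positive log2 fold change from 3 to 8, all genes called higher from 3 to 169 and lower from 3 to 470. The upper ends came without WT replicate 1, except the 8 positive members, also found without Lgmn KO replicate 4, and the causes were not tested. The members' median stayed between -0.23 and -0.10. With the replicate block, which leaves 1 residual degree of freedom, it was -0.11, with 0 members called and 9 genes higher and 30 lower. Among uncalled members near 0 the log2 fold change changed sign: without 1 library it ranged from -0.10 to 0.31 for Fdft1, -0.10 to 0.19 for Sqle, -0.37 to 0.059 for Tm7sf2, -0.17 to 0.23 for Msmo1, -0.064 to 0.025 for Srebf1, -0.076 to 0.029 for Scap, -0.0052 to 0.11 for Insig2, -0.038 to 0.35 for Stard4 and -0.72 to 0.091 for Elovl6. Srebf1 was also at 0.00041 with RLE factors, 0.0015 with DESeq2, 0.0041 without a filter and 0.040 with the replicate block, and Elovl6 at 0.27 with that block. Fads2, with 13 to 61 counts per library, was the member most limited by depth.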

Other observations

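Idi1, the isomerase of isopentenyl diphosphate, stood apart in 1 library and is named after its values were seen. It had 579, 87 and 494 counts in Lgmn KO replicates 1, 2 and 4 and 454, 667 and 634 counts in WT, so Lgmn KO replicate 2 was 5.22 times below the next lowest library. Of 12546 genes tested, 5, Idi1 among them, had 1 library more than 5 times below each of the others, with at least 100 counts in each of those. The log2 fold change of Idi1 was -0.49 (standard error 0.54), and -0.03 without Lgmn KO replicate 2. Exons of Idi1 overlap those of Gm48574 on the other strand.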
